A study of Mus musculus with 12 samples.

Results

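The genes described here are the cell division and motor families of the mouse: the cyclins A, B, D and E (Ccna, Ccnb, Ccnd, Ccne), the cyclin-dependent kinases and the genes named after them (Cdk), the cell division cycle genes (Cdc), the Mcm, Orc and Rfc genes of DNA replication, the kinesins (Kif) and the centromere proteins (Cenp). They were chosen by symbol alone, from probes that the platform annotation pairs with 1 gene symbol, leaving out Cdc42 and its relatives and Mcmbp. The choice gave 89 of 8734 probes and 69 genes. Of these, 50 genes had a probe with a value on all 10 arrays used and were tested, each by the brightest such probe, and 19 had gaps and are described separately.

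Primary mixed glial cells of wild-type and IL-1R1-/- mice were used 10 to 12 days post isolation. They received 10 ng/ml rrIL-1β (written IL-1β for 1 sample) or vehicle for 4 h. IL-1R1-/- cells lack the signalling receptor for IL-1β, so the study compared what the cytokine did with and without it. Both treatments were applied to each culture, in 3 independent cultures per genotype, and RNA was read as radioactively labelled cDNA on 1-colour arrays. The labels used here do not state the strain, the age, the deleted part of the receptor gene or the makeup of the cultures. The 4 groups are wild-type with vehicle (3 arrays), wild-type with IL-1β (3), IL-1R1-/- with vehicle (2 used of 3) and IL-1R1-/- with IL-1β (2 used of 3).

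A cell enters division when D cyclins with Cdk6 and its relatives, and then E cyclins with Cdk2, release the E2F factors from the retinoblastoma protein. Orc, Cdc6 and Mcm proteins license and open the replication origins, and the Rfc complex loads the sliding clamp of the polymerases. Cdk1 with B cyclins drives mitosis, in which kinesins move chromosomes and build the midzone while Cenp proteins hold the kinetochore. Not every family name means division: Cdk9, Cdk13 and Cdk19 act in transcription, Cdc5l and Cdc40 in splicing, and Kif1a, Kif5b and the kinesin-2 motor of Kif3b and Kifap3 in transport. In mixed glial cultures astrocytes, microglia and progenitors can divide, and in bulk RNA fewer cells of a type and less RNA per cell cannot be told apart.

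Arrays had a value for 6723 to 8364 probes, and median intensities ran from 4649 to 60399, lowest for wild-type replicate 2. The 2 columns of IL-1R1-/- replicate 3 each matched another array at a constant ratio. Its IL-1β column did so for 99.2% of probes shared with the vehicle array of IL-1R1-/- replicate 1. Its vehicle column did so for 99.6% of those shared with the vehicle array of wild-type replicate 1. Which column of each match is the original is not known. The columns of IL-1R1-/- replicate 3 were left out as copies, and the 2 arrays they match were kept in all comparisons that use them. The normalized log2 intensity of the receptor probe, Il1r1, overlapped between genotypes with vehicle, at 13.73 to 14.07 in wild-type and 13.86 to 14.06 in IL-1R1-/- glia. Where the probe lies relative to the deletion is not known, and it checks nothing about the labels. Of the markers for other cell types, complete probes covered 4 of 11 for astrocytes, 4 of 14 for microglia, 3 of 10 for the oligodendrocyte lineage, 2 of 8 for neurons, 1 of 8 for meningeal fibroblasts and 5 of 10 for vessels. With IL-1β in wild-type glia the astrocyte markers Id4 (log2 change -1.60) and Glul (-0.84) fell and the vessel marker Emcn (0.84) rose; with the position trend described next removed, Id4 was the one of these past the threshold (-1.28). No tested marker of microglia, the oligodendrocyte lineage, neurons or fibroblasts passed in limma. Their part in the changes below was not tested.

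Changes with IL-1β followed the place of a probe in the probe order. Read as 23 plates of 384 wells (16 rows by 24 columns), a layout inferred from the values, the changes in wild-type glia correlated at 0.636 between neighbouring probes, and at 0.0911 once a smooth trend over plate row and column had been subtracted from each array, separately for plates 1 to 11 (part 1) and the rest (part 2). Values are quantile-normalized unless said otherwise, and mean changes are mostly followed by their value with this position trend removed.

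In wild-type glia 3 of the 50 genes passed the test for IL-1β against vehicle (limma, culture as a block, Benjamini-Hochberg adjusted p under 0.05 over all 5713 probes). Kif20a, a kinesin of the mitotic midzone, and Cdk2, the kinase of S phase entry, were higher, and Rfc1, the large subunit of the clamp loader, was lower. These 3 genes are 6% of those tested, against 6.18% of all probes called (4.55% higher and 1.63% lower), so the share is that of the array as a whole. With the position trend removed 0 of the 50 passed in limma, against 0.403% of all probes, and 3 had an unadjusted p under 0.05, against 11.2% of all probes. Before removal 14 had one (7 in each direction), 28% of the genes against 21.1% of all probes. The median log2 change of the 50 genes was 0.03 (all probes -0.04), and -0.03 with the trend removed (all probes 0.00).

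Calls depended on the block and on single cultures for the whole array, where 353 of 5713 probes passed, as well as for these 3 genes. Without the block 0 of the genes and 14 probes passed. Without wild-type replicate 1 the counts were 0 genes and 28 probes, without replicate 2 they were 1 gene (Kif20a) and 53 probes, and without replicate 3 they were 0 genes and 203 probes. Without either IL-1R1-/- culture 2 genes and 175 probes passed, and Cdk2 was the gene lost (adjusted p = 0.0573 in limma).

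The SD of the vehicle level over the 3 wild-type cultures had a median of 0.27 on the log2 scale, from 0.03 for Cdk13 to 0.76 for Kif2a. The block for culture takes such differences in level out of the test. The median size of the change with IL-1β was 0.27, or 0.11 with the trend removed. Of the 50 genes 9 were higher in all 3 wild-type cultures, 12 were lower in all 3 and 29 were mixed. With the trend removed 6 were higher and 9 lower in all 3. These signs were not counted over all probes, so nothing particular to these genes can be read from them. With the trend removed, all 50 wild-type changes had a 95% confidence interval within 2-fold in either direction (45 before), with a median half-width of 0.30 in log2.

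**Figure D1:**
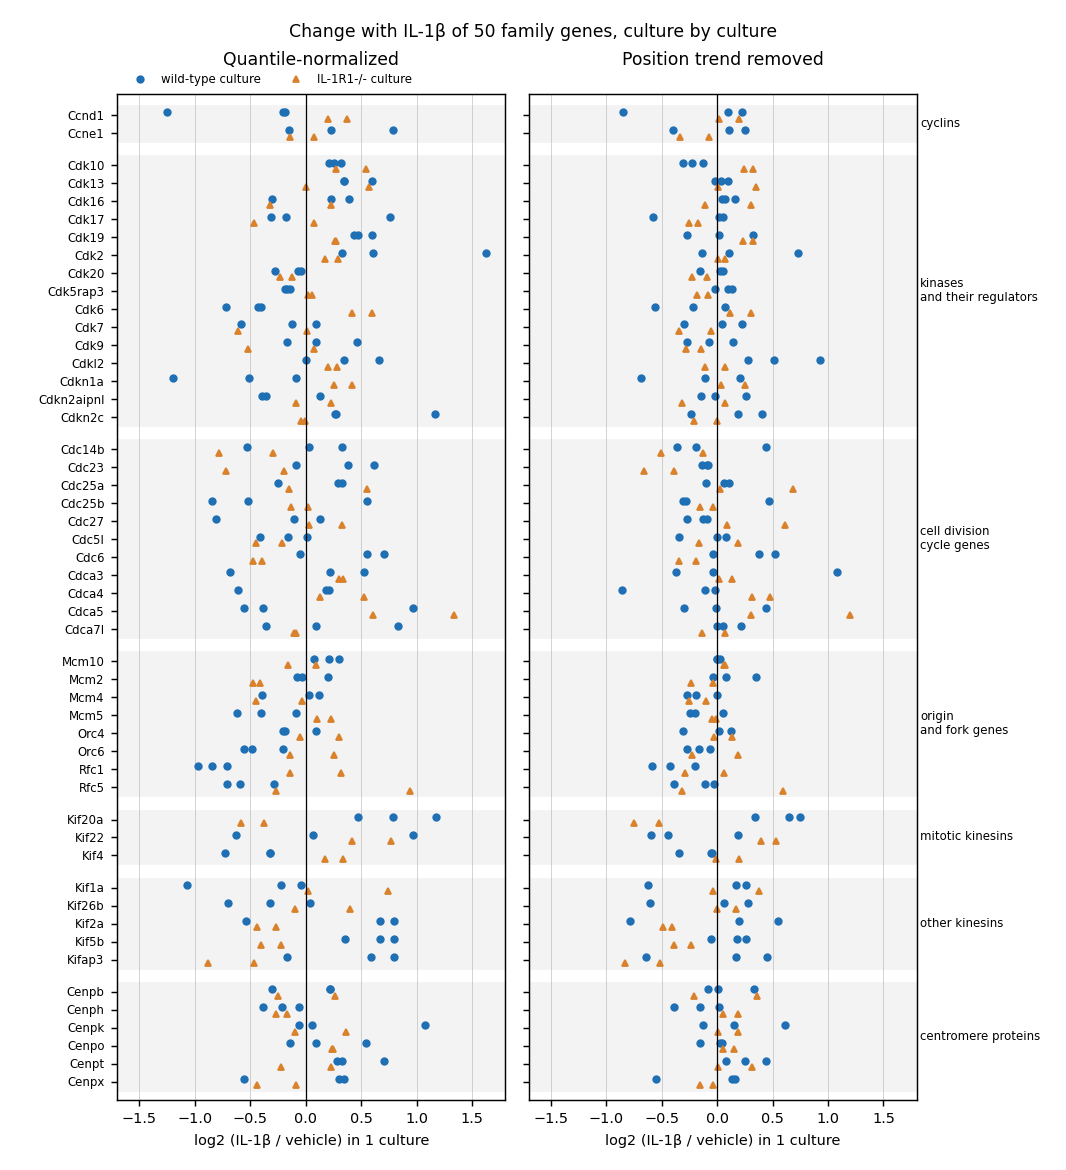
Log2 ratio of IL-1β to vehicle within each culture for the 50 tested genes, ordered by role, with circles for the 3 wild-type and triangles for the 2 IL-1R1-/- cultures. The left panel has quantile-normalized values and the right panel the same with the position trend removed, where the wild-type circles lie closer to 0 (median size of the mean change 0.11 against 0.27).

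Among the cyclins, 0 of the 2 tested passed in any comparison. Ccnd1, the D cyclin that partners Cdk6, had normalized log2 intensities of 15.62, 15.86 and 15.10 in wild-type vehicle cultures and 15.41, 14.61 and 14.91 in the same cultures with IL-1β. All 3 cultures were lower with IL-1β, replicate 2 by far the most, and the groups overlapped. The log2 change was -0.55 ± 0.21 (SE, adjusted p = 0.156 in limma), and -0.18 with the trend removed, when 2 of 3 cultures were above 0. In the IL-1R1-/- cultures Ccnd1 was higher with IL-1β in both (by 0.37 and 0.20; mean 0.29, or 0.11 with the trend removed).

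Ccne1, the cyclin that activates Cdk2, stood at 15.68, 15.19 and 15.30 in wild-type and at 16.41 and 16.41 in IL-1R1-/- vehicle cultures. Every IL-1R1-/- culture was above every wild-type culture. The difference, IL-1R1-/- minus wild-type, was 1.02 ± 0.30 (SE, 2.03-fold, adjusted p = 0.278 in limma) and 0.73 with the trend removed (adjusted p = 0.485), and it did not pass. Its other probe gave -0.22, and -0.12 with the trend removed. The change of Ccne1 with IL-1β was 0.29 in wild-type glia (-0.01 with the trend removed) and -0.03 in IL-1R1-/- glia (-0.21), and neither passed.

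Of the 15 kinases and regulators 1 passed in wild-type glia. Cdk2 read 14.11, 14.29 and 14.64 with vehicle and 14.44, 15.91 and 15.25 with IL-1β. All 3 cultures were higher with IL-1β, and the groups overlapped because vehicle replicate 3 lay above IL-1β replicate 1. The log2 change was 0.85 ± 0.22 (SE, 1.81-fold, adjusted p = 0.0415 in limma), most of it from replicate 2 (1.63 against 0.32 and 0.61), and it was 0.47 without that culture (adjusted p = 0.244). Probes at neighbouring plate positions had a median change of 0.71. With the trend removed Cdk2 had 0.23 (adjusted p = 0.640), with culture values of -0.13, 0.73 and 0.10. In IL-1R1-/- glia it was 0.23 ± 0.27 (SE) and 0.04 with the trend removed.

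Cdk6, the D cyclin kinase, was tight between cultures. It read 15.28, 15.08 and 15.16 in wild-type vehicle cultures and 14.56, 14.65 and 14.76 with IL-1β, and 14.52 and 14.56 in IL-1R1-/- vehicle cultures and 14.94 and 15.16 with IL-1β. Within each genotype the treated and untreated cultures did not overlap, and they moved in opposite directions. The wild-type change was -0.52 ± 0.17 (SE, adjusted p = 0.0901), the IL-1R1-/- change was 0.51 ± 0.21 (SE, adjusted p = 0.620) and the difference of the responses, wild-type minus IL-1R1-/-, was -1.03 ± 0.27 (SE, adjusted p = 0.155), none of them past the threshold in limma. Neighbouring probes moved the same way, with medians of -0.33 in wild-type and 0.28 in IL-1R1-/- glia. With the trend removed the 3 values were -0.24, 0.21 and -0.45, and the other Cdk6 probe, in part 2, had 0.04 in wild-type glia.

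The CDK inhibitors did not pass either. Cdkn1a, induced by p53, read 14.84, 15.77 and 14.93 with vehicle and 14.75, 14.58 and 14.42 with IL-1β in wild-type glia. Each culture was lower with IL-1β, replicate 2 by the most, and the groups did not overlap, though both arrays of replicate 1 lay close together. The change was -0.60 ± 0.21 (SE, adjusted p = 0.106 in limma), and -0.20 with the trend removed, when replicate 1 was above 0. Cdkn2c, which blocks the D cyclin kinases, had 0.57 ± 0.20 (SE, adjusted p = 0.115), of which replicate 2 gave 1.16 and the others 0.26 and 0.27, and 0.12 with the trend removed.

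The remaining kinases and regulators ranged from -0.21 (Cdk7 and Cdkn2aipnl) to 0.50 (Cdk19) in wild-type glia. Cdk19, the kinase of the Mediator module, was higher in all 3 cultures (0.47, 0.44 and 0.60; adjusted p = 0.0927 in limma) and had 0.02 with the trend removed. Cdkl2, a kinase related to the CDKs, went the other way: its change was 0.34 in quantile-normalized values and 0.57 ± 0.14 (SE, adjusted p = 0.148) with the trend removed, with culture values of 0.92, 0.28 and 0.51. In IL-1R1-/- glia its change was 0.24 (cultures 0.20 and 0.28), and -0.02 with the trend removed.

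**Figure D2:**
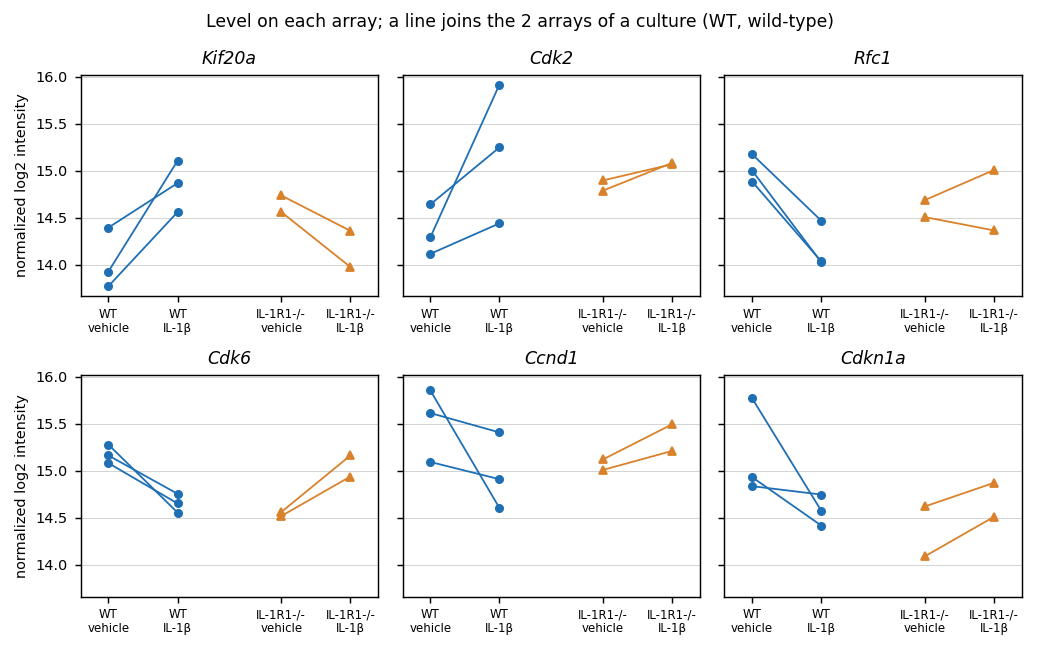
Quantile-normalized log2 intensity of 6 genes on each of the 10 arrays, with a line joining the vehicle and IL-1β arrays of a culture (circles, 3 wild-type cultures; triangles, 2 IL-1R1-/- cultures). All 3 wild-type lines rise for Kif20a and Cdk2 and fall for the other 4 genes, while the IL-1R1-/- lines of Kif20a, Cdk6, Ccnd1 and Cdkn1a run the opposite way to the wild-type lines.

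Among the origin and fork genes 1 of 8 passed in wild-type glia. Rfc1 read 15.17, 14.88 and 15.00 with vehicle and 14.47, 14.03 and 14.03 with IL-1β. Every treated culture was below every untreated culture. The change was -0.84 ± 0.18 (SE, 1.79-fold lower, adjusted p = 0.0218 in limma), with culture values of -0.71, -0.85 and -0.97. Neighbouring probes had a median of -0.53, and with the trend removed Rfc1 had -0.40 ± 0.13 (SE, adjusted p = 0.265), still below 0 in all 3 cultures. In IL-1R1-/- glia Rfc1 had 0.09 (cultures -0.14 and 0.32), and -0.11 with the trend removed. Leaving out any wild-type culture gave changes of -0.78 to -0.91 that did not pass, with adjusted p from 0.0503 to 0.0903.

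Rfc5, a small subunit of the same complex, was lower in all 3 wild-type cultures without passing (-0.53 ± 0.22 SE, adjusted p = 0.177; -0.18 with the trend removed). Of the subunits of the Mcm helicase, Mcm5 had -0.37, Mcm2 had 0.03 and Mcm4 had -0.08. Mcm10, which is not a subunit, had 0.20. Orc6, of the origin recognition complex, had -0.41 and Orc4 had -0.10. After trend removal these 6 genes lay between -0.17 and 0.13, and none passed in any comparison.

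Mcm2 was lower with IL-1β in both IL-1R1-/- cultures (-0.41 and -0.48; mean -0.44 ± 0.21 SE, adjusted p = 0.652 in limma), and its mean change there was -0.14 with the trend removed. Cdc6, which loads the Mcm ring, had 0.40 in wild-type and -0.43 in IL-1R1-/- glia (0.29 and -0.27 with the trend removed). Its level with vehicle was 14.32, 14.49 and 14.38 in wild-type and 15.11 and 15.12 in IL-1R1-/- glia. The cultures of each genotype lay close together and apart from those of the other. That difference of 0.72 ± 0.24 (SE, adjusted p = 0.365; 0.58 with the trend removed) did not pass, and the other Cdc6 probe gave -0.41 and 0.03.

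Among the mitotic kinesins Kif20a passed in wild-type glia. It read 13.77, 14.39 and 13.93 with vehicle (mean 14.03 ± 0.32, SD, n = 3) and 14.56, 14.87 and 15.11 with IL-1β (14.84 ± 0.27, SD, n = 3). In the IL-1R1-/- cultures it read 14.56 and 14.74 with vehicle and 13.97 and 14.36 with IL-1β. Treated and untreated cultures did not overlap in either genotype, and every wild-type culture went up while both IL-1R1-/- cultures went down.

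The wild-type change of Kif20a was 0.81 ± 0.18 (SE, 1.76-fold, adjusted p = 0.0291 in limma), and 0.58 ± 0.13 (SE, adjusted p = 0.107) with the trend removed. Its neighbours on the plate had a median of 0.23. The IL-1R1-/- change was -0.48 ± 0.23 (SE, adjusted p = 0.652). Removing the trend gave -0.64. The difference between the responses was 1.29 ± 0.29 (SE, 95% confidence interval 0.67 to 1.92, adjusted p = 0.105). After trend removal it was 1.22 ± 0.21 (SE, 0.76 to 1.67, adjusted p = 0.0602). This was the smallest adjusted p of the 50 genes for that comparison and missed the threshold in both forms. Of 20 alternative settings 4 put this difference past the threshold in limma, while its sign was the same in all 20. Without wild-type replicate 2 it was 1.46 (adjusted p = 0.0475), or 1.34 (0.0266) with the trend removed. With median centring in place of quantile normalization it was 1.32 (adjusted p = 0.0144). With no normalization between arrays it was 1.31 (adjusted p = 0.0150). In the other settings it did not pass.

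The other mitotic kinesins did not pass in wild-type glia. Kif4, which condenses chromosomes and builds the midzone, was lower in all 3 wild-type cultures (-0.33, -0.32 and -0.73; mean -0.46 ± 0.17 SE, adjusted p = 0.146) and had -0.15 with the trend removed. Kif22, which pushes chromosome arms, was mixed in wild-type glia (0.07, 0.97 and -0.63; mean 0.14, or -0.28 with the trend removed) and higher in both IL-1R1-/- cultures (0.42 and 0.77; mean 0.59 ± 0.30 SE, adjusted p = 0.668 in limma; 0.46 with the trend removed). Its 3 other probes gave between -0.25 and -0.04 in wild-type glia.

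Of the 5 transport and other kinesins 0 passed in wild-type glia. Kif5b, a heavy chain of kinesin-1, read 14.67, 13.97 and 14.85 with vehicle and 15.02, 14.77 and 15.52 with IL-1β. All 3 cultures were higher with IL-1β and the groups overlapped. The change was 0.61 ± 0.17 (SE, adjusted p = 0.0559 in limma), close to the 0.56 of its neighbours, and 0.13 with the trend removed. The other Kif5b probe, which lies in part 1, had -0.61, and -0.25 with the trend removed.

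Kifap3, which joins the kinesin-2 motor to its cargo, read 16.09 and 15.84 with vehicle and 15.63 and 14.96 with IL-1β in IL-1R1-/- glia. Both cultures were lower with IL-1β and the groups did not overlap. The change was -0.67 ± 0.25 (SE, adjusted p = 0.601) and kept its size with the trend removed (-0.68, adjusted p = 0.608), without passing. In wild-type glia Kifap3 had 0.40 (-0.01 with the trend removed) with cultures on both sides of 0. With median centring and with no normalization its IL-1R1-/- change passed (-1.12 and -1.09, adjusted p = 0.0129 and 0.0146).

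Among the 6 centromere proteins 0 passed in wild-type glia. Cenpt, which anchors the outer kinetochore, was higher in all 3 cultures (0.70, 0.33 and 0.28; adjusted p = 0.178 in limma), and remained above 0 in all 3 with the trend removed (mean 0.26). Cenpk had 1.07 in replicate 3 and -0.07 and 0.05 in the other cultures (mean 0.35, or 0.21 with the trend removed). Cenpb, which binds the centromeric repeat, had 0.05 (0.09 with the trend removed).

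Among the 11 cell division cycle genes 0 passed in wild-type glia, and their largest change was in IL-1R1-/- glia. Cdca5, also called sororin, protects sister chromatid cohesion. It read 15.46 and 14.76 with vehicle and 16.08 and 16.10 with IL-1β. Both cultures were higher with IL-1β, and the groups did not overlap. The change was 0.97 ± 0.32 (SE, adjusted p = 0.601 in limma), with culture values of 0.61 and 1.34, and 0.75 with the trend removed. It did not pass in either form. With the IL-1R1-/- arrays fitted alone it passed in limma (adjusted p = 0.0126), the only 1 of the 50 genes to do so. In that fit 108 of 5713 probes passed, against 0 when all arrays were fitted together. In wild-type glia the same gene had -0.38, -0.55 and 0.96.

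Cdc23, a subunit of the anaphase-promoting complex, read 15.96 and 16.16 in IL-1R1-/- and 14.97, 14.90 and 15.52 in wild-type vehicle cultures. Both IL-1R1-/- cultures were above all 3 wild-type cultures, and the difference of 0.93 ± 0.27 (SE, adjusted p = 0.281 in limma; 0.83 and 0.297 with the trend removed) did not pass. The phosphatases that activate the CDKs did not pass: Cdc25a had 0.12 (0.02 with the trend removed) and Cdc25b had -0.27 (-0.04) in wild-type glia, with cultures on both sides of 0 for each.

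In IL-1R1-/- glia 0 of the 50 genes passed for IL-1β against vehicle in limma, where 0% of all probes were called. An unadjusted p under 0.05 was reached by 4 genes (2 above and 2 below 0), against 434 of 5713 probes. With median centring 2 genes passed (Cdc23 and Kifap3, both lower) against 3.10% of all probes, and with no normalization the same 2, against 2.68%. The 2 cultures moved together for 33 genes, up for 18 and down for 15, and apart for 17. With the trend removed they moved up together for 18 and down together for 19. No such count was made over all probes, so it is not a result about these genes. Cdk10, a CDK-like kinase, was higher in both (0.54 and 0.27; mean 0.41 ± 0.21 SE, adjusted p = 0.668 in limma; 0.28 with the trend removed), and the phosphatase gene Cdc14b was lower in both (-0.79 and -0.29; mean -0.54 ± 0.24 SE, adjusted p = 0.642; -0.32 with the trend removed).

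For the difference between the responses 0 of the 50 genes passed in limma, where 0.158% of all probes were called. An unadjusted p under 0.05 was reached by 13 genes (5 above and 8 below 0), 26% of those tested against 14.1% of all probes, and by 11 (6 above and 5 below) with the trend removed, against 8.07%. After trend removal 0 passed as well, against 0.158% of all probes. With median centring 6 genes passed (Kif20a, Kifap3, Kif5b, Kif2a, Cdc23 and Cdc6), each with the higher response in wild-type glia, against 4.62% of all probes. With no normalization 3 of these passed (Kif20a, Kifap3 and Cdc23), against 4.20%.

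Between genotypes 0 of the 50 genes passed with vehicle in limma, where 0.0175% of all probes were called. With IL-1β 0 passed, where 0.0700% were called. Unadjusted p values under 0.05 were reached by 8 genes with vehicle, 6 of them higher in IL-1R1-/- glia, and by 4 genes with IL-1β. These are 16% of the genes against 8.56% of all probes, and 8% against 4.97%. The higher genes with vehicle included Ccne1, Cdc23, Cdc6 and Kifap3 (0.96, adjusted p = 0.381 in limma, and 0.68 with the trend removed). The 2 lower genes were Cdkn1a (-0.82, adjusted p = 0.409) and Cdk6 (-0.63, adjusted p = 0.348). Cdca4 was lower as well (-0.44, adjusted p = 0.712), with an unadjusted p above 0.05. None of these passed the threshold. The differences of Cdkn1a, Cdk6 and Cdca4 were -0.45, -0.27 and -0.64 with the trend removed. With median centring Cdc23, Ccne1 and Kifap3 passed, with differences of 1.37, 1.43 and 1.45, against 1.79% of all probes.

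The direction of the wild-type changes went with the place in the probe order. Of the 21 genes whose probe lay in part 1, 17 were below 0, with a median of -0.27 (all probes there -0.20). Of the 29 in part 2, 24 were above 0, with a median of 0.20 (all probes there 0.15). After removal of the trend the medians were -0.07 and -0.01.

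**Figure D3:**
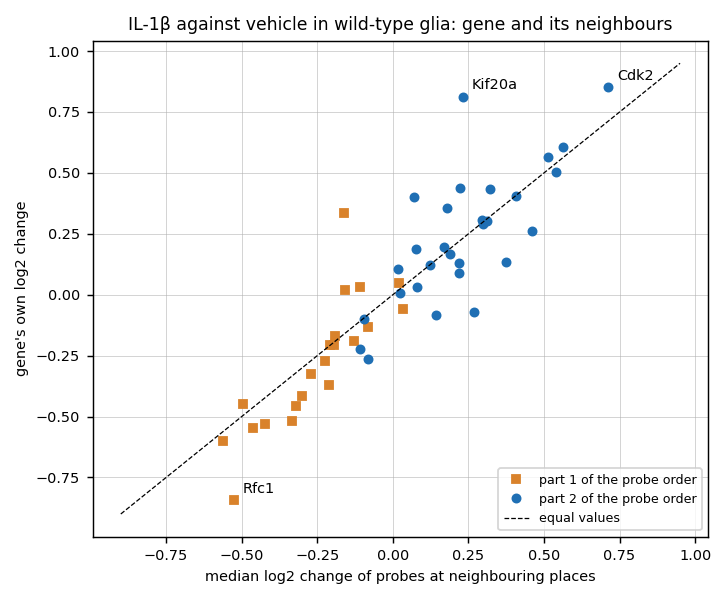
Log2 change with IL-1β in wild-type glia of each of the 50 genes (vertical axis) against the median change of probes of the same part at the same or adjacent plate rows and columns (horizontal axis), with squares for part 1 and circles for part 2. Many points lie near the line of equal values. Kif20a (0.81 against 0.23) and Rfc1 (-0.84 against -0.53) lie off it, and Cdk2 (0.85 against 0.71) lies nearer to it. Genes that were not called also lie off it, among them Cdkl2 (0.34 against -0.16), Cdca4 (-0.07 against 0.27) and Cdc6 (0.40 against 0.07).

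For 11 genes 13 other probes were available, and 4 of the 13 had the sign of the brightest probe in wild-type glia. The 2 values differed by a median of 0.39, and by 0.20 with the trend removed. Kif5b differed most (0.61 and -0.61), and Cdc6 (0.40 and -0.30), Ccne1 (0.29 and -0.25) and Kif2a (0.31 and -0.25) also had a brightest probe in part 2 above 0 and a probe in part 1 below 0. Cdc27 had opposite signs with both probes in part 2 (-0.26 and 0.29). Its probes stayed apart with the trend removed (-0.16 and 0.33).

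**Figure D4:**
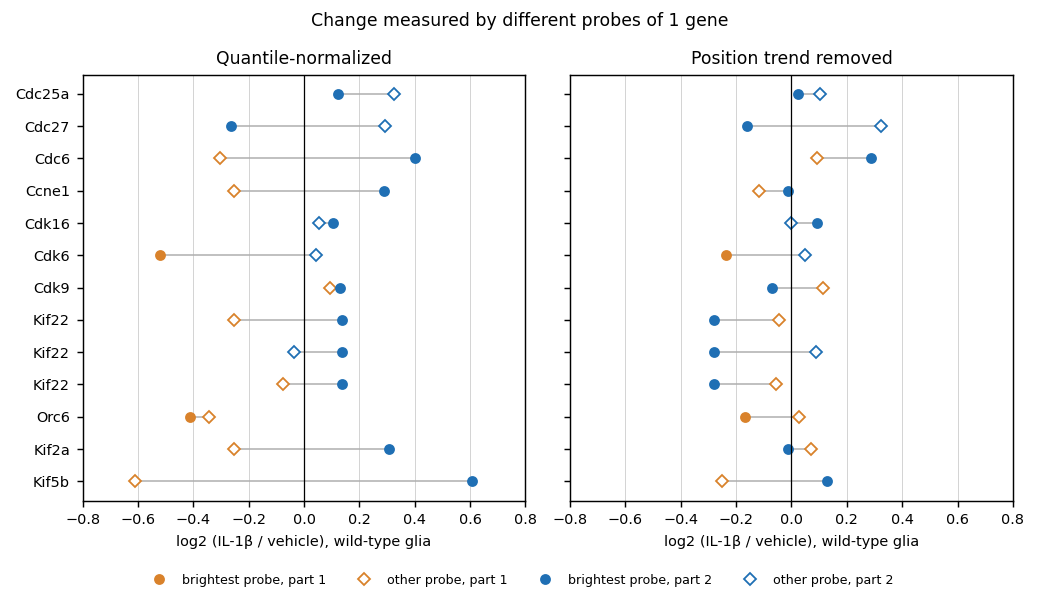
Log2 change with IL-1β in wild-type glia for the brightest probe (filled circle) and each other probe (open diamond) of 11 genes, coloured by part of the probe order, with Kif22 drawn for each of its 3 other probes. Before trend removal the part 2 probes lie mostly to the right of the part 1 probes of the same gene. The median difference between probes was 0.39 before and 0.20 after removal. Not every gene drew together: Cdk9 had 0.13 and 0.09 before, and -0.07 and 0.11 after.

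Of the 19 genes with gaps, 17 could be fitted on the pairs they had, in a fit of 8146 probes that kept gaps (at least 2 wild-type pairs and 1 IL-1R1-/- pair per probe). In that fit 7 of 67 genes passed in wild-type glia in limma, against 8.11% of all probes (5.38% higher and 2.74% lower). They were the 3 above with Kif3b, Cdc7 and Cdc37l1, higher, and Cdk1, lower. With the trend removed 1 of 67 passed, against 0.503% of all probes: Kif3b.

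Kif3b, a motor subunit of kinesin-2, had values in wild-type replicates 2 and 3. It read 14.30 and 14.33 with vehicle and 15.90 and 15.09 with IL-1β. Both treated cultures were above both untreated ones. The change was 1.18 ± 0.29 (SE, adjusted p = 0.0328 in limma), and 1.12 ± 0.17 (SE, adjusted p = 0.0324) with the trend removed, from 2 pairs. In the IL-1R1-/- cultures it was -0.16 and 0.90, and the difference between the responses was 0.80 ± 0.41 (SE, adjusted p = 0.376), or 0.79 with the trend removed (adjusted p = 0.380), and the responses were not shown to differ. Its partner Kifap3 did not pass.

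Cdk1, the mitotic kinase, had values in wild-type replicates 1 and 3 and IL-1R1-/- replicate 1. It read 16.13 and 16.32 with vehicle and 14.83 and 15.37 with IL-1β in wild-type glia, and 15.45 and 14.33 in the IL-1R1-/- culture. All 3 cultures were lower with IL-1β. The wild-type change was -1.13 ± 0.23 (SE, adjusted p = 0.0254 in limma), and -0.64 ± 0.19 (SE, adjusted p = 0.249) with the trend removed, and the IL-1R1-/- culture had -1.12, or -0.92. The difference between the responses was -0.01 ± 0.40 (SE, 95% confidence interval -0.88 to 0.87), or 0.28 ± 0.33 (SE) with the trend removed. As the IL-1R1-/- arm is 1 pair, its spread is assumed to be that of the wild-type pairs.

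Cdc7, the kinase that fires licensed origins, and Cdc37l1, a relative of a chaperone for kinases, passed before but not after trend removal (1.17 and 0.94, adjusted p = 0.0476 and 0.0440; 0.35 and 0.43 after it). For both, replicate 2 gave most of the change (2.04 and 1.41, against 0.29 and 0.48 in replicate 1). Of the helicase and kinetochore genes with gaps, Mcm6 and Mcm7 had wild-type cultures between -0.01 and 0.15, and Cenpa and Kif2c changed by -0.32 and -0.16 without passing. Cdc14a and Cenpm had a single wild-type pair each and entered no fit.

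Other genes of the same pathway, from a list of 88 replication, mitosis, checkpoint and E2F genes, were tested for 26, and 0 passed in any of the 5 comparisons in limma. In wild-type glia 6 of the 26 had an unadjusted p under 0.05 (1 with the trend removed), where 21.1% of all probes did (11.2% with it removed), and their median change was -0.02. The smallest unadjusted p in wild-type glia belonged to Plk4, the kinase of centriole duplication (0.73 ± 0.21 SE, adjusted p = 0.0537; 0.14 with the trend removed), and Anln, a scaffold of the cleavage furrow, had 0.55 (0.07 with the trend removed). Myc, which drives many of these genes, had 0.29, and 0.45 with the trend removed.

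RefSeq promoter windows (GRCm38.p6, 250 bases before to 50 after a transcript start) matched 60 of the 69 genes, with 79 windows, and were searched for letters known from cell cycle promoters, with no test. The letters of E2F sites (TTCCCGC or TTGGCGC or TTCGCGC, either strand) were in 26.6% of them against 8.07% of all 32851 windows. The CCAAT box was in 58.2% against 37.4%, and the cell cycle homology region CHR (TTTGAA or TTTAAA) in 30.4% against 27.6%. TTGGCGC can share its first bases with a CCAAT box read on the other strand. A match is a description and not a site shown to be used. The 250 upstream bases are shown for Cdk2, called on complete probes, and for Cdk1 and Kif3b, called with gaps kept: Cdk1 (chr10:69352913-69353162, minus strand), Cdk2 (chr10:128705052-128705301, minus strand) and Kif3b (chr2:153291166-153291415, plus strand), read 5′ to 3′ along the gene, with matches to these letters in capitals. The window of Cdk1 holds 2 E2F matches, 3 CCAAT boxes and 2 CHR matches, that of Cdk2 has 2 E2F matches and 1 CCAAT box, and that of Kif3b has 1 CCAAT box. The annotated span of Kif3b starts at chr2:153291395, so the last printed bases of its window lie inside it. Kif20a was not matched, and the upstream bases of Rfc1 (1 CCAAT box and 0 E2F matches) all lie inside the annotated span of the gene and are not printed.
Cdk1: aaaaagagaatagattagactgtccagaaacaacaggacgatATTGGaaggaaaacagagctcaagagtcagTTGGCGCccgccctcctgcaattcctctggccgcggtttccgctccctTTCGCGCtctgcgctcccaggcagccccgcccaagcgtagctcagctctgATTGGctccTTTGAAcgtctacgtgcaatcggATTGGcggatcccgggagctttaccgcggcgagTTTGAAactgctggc
Cdk2: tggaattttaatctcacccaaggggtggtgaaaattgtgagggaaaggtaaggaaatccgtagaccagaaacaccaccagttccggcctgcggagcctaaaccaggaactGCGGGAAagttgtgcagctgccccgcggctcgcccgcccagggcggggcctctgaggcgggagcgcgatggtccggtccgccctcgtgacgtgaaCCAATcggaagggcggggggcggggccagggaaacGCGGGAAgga
Kif3b: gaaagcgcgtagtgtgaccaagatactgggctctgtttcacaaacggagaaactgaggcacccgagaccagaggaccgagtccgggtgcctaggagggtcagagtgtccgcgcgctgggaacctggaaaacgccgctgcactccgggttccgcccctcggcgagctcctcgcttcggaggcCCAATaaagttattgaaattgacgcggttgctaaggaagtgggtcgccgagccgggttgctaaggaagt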

How the data were processed

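The series matrix holds the authors' processed values of 12 arrays, and the deposited values are linear intensities whose scale differs between cultures; their background correction and normalization are not stated in the labels. Here they were set to log2, quantile-normalized over the 5713 probes complete on 10 arrays, and tested with limma 3.58.1 (R 4.3.3), two-sided, with Benjamini-Hochberg adjustment over all 5713 probes. Responses to IL-1β used culture as a block, since the series description says treatments were paired; deviations of paired arrays correlated at 0.261 to 0.582. Genotypes were compared over group means with duplicateCorrelation (0.388). The position trend was a loess surface (span 0.2) per array and part. Probe levels were not compared between probes. Named genes were those past the threshold, up to 4 per direction and comparison by p, and a textbook core set. The members and lists were chosen with earlier results of these data known. The fit was tested on simulated data. The number of arrays limits the precision. Symbols came from the platform annotation and matched a RefSeq table (GRCm38.p6).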

Additional observations from a re-analysis of the deposited data

How the results depend on the processing

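The number of the 50 genes past the threshold in wild-type glia was 3, where 353 of all probes passed. It was 0 with the position trend removed (23 probes), 0 without the replicate block (14 probes) and 0 with both (8 probes). With all 12 columns 1 of the 35 complete genes passed (150 probes). With gaps kept 7 of 67 genes passed (661 probes). With gaps kept and the trend removed 1 of 67 passed (41 probes). That alternative was chosen after seeing the data, and its median change was -0.0481. The median was -0.00176 without IL-1R1-/- replicate 3 and the pairs of the arrays it matches (using the correlation estimated on 10 arrays). Leaving out 1 wild-type culture gave 0 to 1 of the 50 genes (28 to 203 probes), with medians of -0.0120 to -0.00176. With the trend removed as well it gave 0 (11 to 21 probes), with medians of -0.0645 to 0.0195. Without either IL-1R1-/- culture the median was 0.0303, and -0.0259 with the trend removed. The change of Cdk2 was 0.465 to 1.12 when 1 culture was left out. With the trend removed as well it was -0.0140 to 0.419, below 0 without wild-type replicate 2. The cause was not tested.

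In IL-1R1-/- glia the count (0) was 2 with median centring (177 probes), 2 with no normalization (153 probes) and 1 with 1 genotype fitted alone (108 probes). The median change there was 0.0264 with the trend removed, with or without the block, 0.0681 with no normalization and 0.0769 with the array floor subtracted. It was 0.0636 with all 12 columns and 0.0230 without IL-1R1-/- replicate 3 and the pairs of the arrays it matches. Leaving out 1 culture gave 0.00568 to 0.0483, and -0.00594 to 0.0264 with the trend removed as well. For the difference between responses the count (0) was 6 with median centring (4.62% of all probes) and 3 with no normalization (4.20%). It was 1 (Kif20a) without wild-type replicate 2, with the trend kept or removed. The median was -0.00519 with all 12 columns and -0.00144 with gaps kept and the trend removed. Leaving out 1 culture, with the trend kept or removed, gave -0.0515 to 0.0837. Between genotypes with vehicle 3 genes passed with median centring (1.79% of all probes), and the median was 1.84 with no normalization and -0.0353 with gaps kept. With IL-1β it was 1.81 with no normalization, and 0.00302 to 0.120 leaving out 1 culture, with the trend kept or removed. The values of 1.84 and 1.81 hold the difference in scale between arrays, which that setting does not remove. Median intensities with vehicle were 32303 and 58788 on the IL-1R1-/- arrays used, against 18006, 4649 and 24314 on the wild-type arrays. The 2 IL-1R1-/- cultures and the inferred layout limit these results, and the causes of the other shifts were not tested.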
